A study of Homo sapiens with 12 samples.

Results

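Interferon-stimulated effector genes encode the proteins that carry out the antiviral response of a cell after interferon has bound its receptors. A list of 46 such genes was read by symbol from the deposited gene tables, which hold 27968 symbols per library, and all 46 were found. Of these, 45 had enough reads to be tested among 15304 tested genes, and CMPK2 was left untested. RNA sequencing had been done in the established lines A549, from lung cancer, and MDA-MB-231, from breast cancer, to find genes that depend on the extracellular matrix. The 4 groups were A549 grown for 4 days as 3D culture in Matrigel, a basement membrane gel, A549 grown flat as 2D culture to about 80% confluence, MDA-MB-231 in 3D and MDA-MB-231 in 2D, with 3 libraries in each group. All 12 libraries came from untreated cells in DMEM with 10% serum, so no group had been given interferon. Each line is a single model of its tumour type, and the gel and the time of harvest differ together between 3D and 2D. Nothing in the labels states that the 3 libraries of a group are independent cultures. The p-values therefore describe the spread among these samples alone, and that spread may be technical.

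In the canonical pathway, type I and type III interferons bind cell-surface receptors, the kinases JAK1 and TYK2 become active, and a complex that holds STAT2 and IRF9 binds the interferon-stimulated response element (ISRE) of target promoters. The targets include RNA-binding effectors such as the OAS and IFIT families, membrane proteins that block virus entry or release such as the IFITM family and BST2, GTPases such as MX1 and the GBP family, and ISG15 with the enzymes that attach it to other proteins. Some cancer cell lines keep a constant output of these genes without added interferon.

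Total expected counts per library were 5609327 to 28171901 in A549 3D, 16453891 to 17717695 in A549 2D, 11624620 to 19838477 in MDA-MB-231 3D, and 19624283 to 21227363 in MDA-MB-231 2D. The A549 3D libraries stood apart from the others in their spread, with a biological coefficient of variation of 0.18, against 0.0377 to 0.0563 in the other groups. Fragments averaged 137.7 ± 3.67 bases in A549 3D, against 180.6 ± 5.83 bases in A549 2D. In MDA-MB-231 they averaged 184.8 ± 3.37 bases in 3D, against 213.4 ± 4.5 bases in 2D (SD, n = 3 each). Ribosomal RNA genes took 3.53 to 16.5% of counts in A549 3D and 0.311 to 0.483% in A549 2D, and 4.01 to 6.5% in MDA-MB-231 3D and 1.12 to 1.18% in MDA-MB-231 2D. The part of fragment length and of ribosomal RNA in the results below was not tested. Of the line markers, all 5 of A549 were higher in A549 in both cultures, and the 5 of MDA-MB-231 were all lower in A549 in 3D, with CAV1 the exception in 2D (704 CPM in A549, against 583 CPM in MDA-MB-231).

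The summed level of the members per length was higher in MDA-MB-231 than in A549. This level, in deposited TPM, a length-corrected share of transcripts, was 601.9, 490.5 and 1120 in the A549 3D libraries, against 348.8, 336.2 and 353.8 in A549 2D. In MDA-MB-231 the sums were 3424, 3410 and 3390 TPM in 3D, against 2435, 2596 and 2493 TPM in 2D. The sums of 3D and 2D did not overlap in either line, and A549 3D replicate 3 was the highest A549 library. CPM does not correct for length. In CPM the sums were 1655, 1411 and 2577 in A549 3D, against 935.1, 912.5 and 913.2 in A549 2D. In MDA-MB-231 they were 2891, 2913 and 2937 CPM in 3D, against 2214, 2254 and 2244 CPM in 2D. The RNAs RPPH1 and RMRP took 5.04 to 6.13% of counts in A549 3D and 1.24 to 1.33% in A549 2D. In MDA-MB-231 these RNAs took 0.00214% or less. Their part in the TPM values was not tested. On the per-length TPM scale LGALS3BP, a secreted glycoprotein, led in A549 3D with 107 ± 42.3 TPM, followed by OAS1, IFI6, IFITM2 and ADAR. ADAR, an enzyme that edits double-stranded RNA, led in A549 2D with 59.4 ± 1.9 TPM. IFITM3, an endosomal membrane protein that blocks virus fusion, led in both MDA-MB-231 groups with 833 ± 34.8 TPM in 3D and 429 ± 52.9 TPM in 2D (SD, n = 3 each).

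In A549, 39 of the 45 tested members rose in 3D and 1, HERC5, fell, by edgeR's quasi-likelihood test with a Benjamini-Hochberg adjusted p under 0.05 over all tested genes. That is 86.7% of the members, where 34.1% of all tested genes rose and 31.5% fell, 65.6% in all. The median log2 fold change was 2.29 over the members and 0.03 over all tested genes. In edgeR's test against a log2 fold change of 1, 28 members rose and 0 fell. In that test 2472 of 15304 tested genes passed in either direction. Libraries of the 2 cultures did not overlap for 35 higher members and 1 lower member, against 32.7% of all tested genes without overlap on the higher side and 32.1% on the lower side. IFIT5, TRIM21, SP100, ADAR and EIF2AK2 did not pass. The filter on low counts used all 4 groups, so a member could be tested in A549 through its reads in MDA-MB-231. With the 2 A549 groups fitted alone, 38 members had enough reads to be tested. Of these 31 rose and 1 fell, with a median log2 fold change of 1.85, and 8760 of 14111 tested genes passed. In a bulk culture, more cells that express a gene and more RNA of it per cell cannot be told apart.

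In MDA-MB-231 the same genes showed no common direction as fitted, before any trend in length and GC content was removed. Of the 45 tested members, 16 rose and 13 fell in 3D, where 33.4% of all tested genes rose and 34.2% fell, 67.6% in all. The members' shares of 35.6% and 28.9% thus lie near the background. The median log2 fold change was 0.02 over the members and 0 over all tested genes. Both lines showed a rise for 16 members, where 15.3% of all tested genes rose in both, and 10 members rose in A549 and fell in MDA-MB-231, where 6.97% of all tested genes did so. With a trend in gene length and GC content removed, 0 of these 10 kept both edgeR calls, and 11 of the 16 did. HERC5 alone fell in both lines, as did 16.1% of all tested genes. By edgeR 0 members fell in A549 and rose in MDA-MB-231, as 7.21% of all tested genes did. The model shares its estimate of spread over the 4 groups, so the wider A549 3D spread enters the MDA-MB-231 p-values. With the 2 MDA-MB-231 groups fitted alone, 21 members rose and 18 fell, and 10965 of 13663 tested genes passed. With the length and GC trend removed, 17 members rose and 2 fell there, and 8688 of 15304 tested genes passed.

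**Figure D1:**
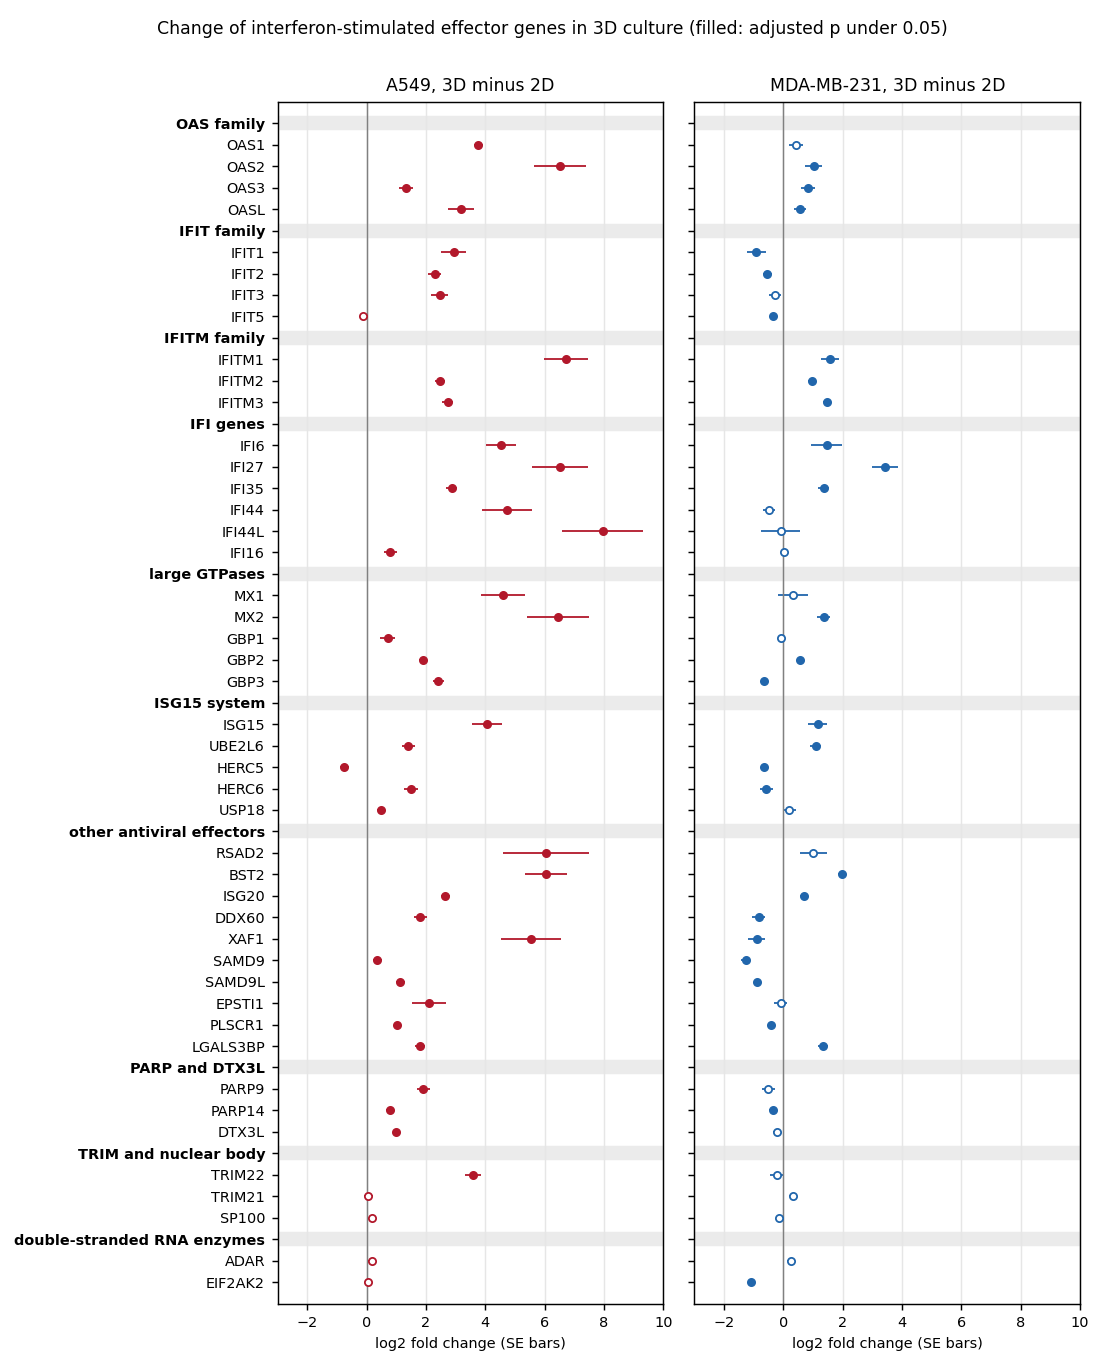
Log2 fold change of 3D over 2D for the 45 tested members, ordered by role, in A549 on the left and MDA-MB-231 on the right. Points are edgeR estimates, bars are standard errors, and filled points passed at an adjusted p under 0.05. In A549 39 members lie to the right of 0 and pass, while in MDA-MB-231 16 pass to the right and 13 to the left.

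The OAS family makes or resembles the enzymes that make short adenylate chains in response to double-stranded RNA and thereby switch on RNase L. All 4 members rose in A549, and 3 of 4 rose in MDA-MB-231. OAS1 had 120, 123 and 180 CPM (counts scaled to library size with TMM factors, also below) in A549 3D, against 10.9, 9.57 and 10.9 CPM in A549 2D. Every 3D library of A549 was thus above every 2D library, with a log2 fold change of 3.76 ± 0.15 (SE, adjusted p = 1.6e-11). In MDA-MB-231 OAS1 was low in both cultures, with 2.84, 4.09 and 3.29 CPM in 3D, against 2.57, 2.85 and 2.34 CPM in 2D, and did not pass (0.43 ± 0.23, adjusted p = 0.115). OAS2 showed the reverse order of lines. It had 2.13, 1.17 and 12.4 CPM in A549 3D, against 0.111, 0.0532 and 0.0562 CPM in A549 2D, where 4 reads were counted in all. MDA-MB-231 held 67.6, 66.8 and 67.5 CPM in 3D, against 31.7, 33.2 and 34.7 CPM in 2D. The cultures did not overlap in either line, and replicate 3 was the highest A549 3D library. The log2 fold change of OAS2 was 6.53 ± 0.88 in A549 (adjusted p = 9.06e-06) and 1.02 ± 0.28 in MDA-MB-231 (adjusted p = 0.00432). Without A549 3D replicate 3 the A549 value of OAS2 was 4.45 (adjusted p = 1.47e-06). OAS3 and OASL also rose in both lines, by 1.32 ± 0.24 and 3.18 ± 0.43 in A549 and by 0.82 ± 0.24 and 0.56 ± 0.21 in MDA-MB-231 on the log2 scale. The rise of OASL in MDA-MB-231 (adjusted p = 0.0252) had an adjusted p of 0.0528 to 0.0805 when any library but 3D replicate 2 was left out.

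IFIT proteins bind viral RNA ends and hold back its translation. Of the 4 members, 3 rose in A549 and 3 fell in MDA-MB-231, though not the same 3. IFIT1 had 15.4, 11.3 and 55.2 CPM in A549 3D, against 4.15, 3.99 and 4.05 CPM in A549 2D. In MDA-MB-231 it had 48.5, 50.6 and 47.7 CPM in 3D, against 90.9, 89.4 and 95.7 CPM in 2D. The cultures did not overlap in either line, with 3D above 2D in A549 and below it in MDA-MB-231. The log2 fold change was 2.93 ± 0.41 in A549 (adjusted p = 1.47e-05) and -0.91 ± 0.31 in MDA-MB-231 (adjusted p = 0.0181). The fall of IFIT1 missed the threshold without MDA-MB-231 3D replicate 1 or 3, at an adjusted p of 0.0528 and 0.0568, and the A549 rise was 1.75 without A549 3D replicate 3. IFIT2 rose by 2.29 ± 0.23 in A549 and fell by 0.55 in MDA-MB-231. IFIT3 had 11.9, 10.7 and 28.1 CPM in A549 3D, against 4.31, 3.14 and 2.87 CPM in A549 2D, and 148, 137 and 140 CPM in MDA-MB-231 3D, against 177, 162 and 182 CPM in MDA-MB-231 2D. The cultures were apart in both lines, higher in A549 3D and lower in MDA-MB-231 3D. IFIT3 rose by 2.46 ± 0.29 in A549, with a value of -0.29 ± 0.2 in MDA-MB-231 that did not pass. IFIT5 was the exception of the family in A549, with a log2 value of -0.13 ± 0.1 (adjusted p = 0.274), and fell by 0.37 in MDA-MB-231, where it was 0.55 with a trend in gene length and GC content removed.

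The IFITM proteins sit in cell and endosome membranes and block the fusion of virus with them. All 3 members rose in both lines. IFITM1 had 3.38, 4.69 and 16.8 CPM in A549 3D, against 0, 0.0532 and 0.225 CPM in A549 2D, and 30.7, 30.3 and 31.3 CPM in MDA-MB-231 3D, against 9.75, 10.6 and 10.8 CPM in MDA-MB-231 2D. The cultures were fully apart in both lines. Its log2 fold change was 6.71 ± 0.74 in A549 (adjusted p = 1.13e-06, and 5.31 without A549 3D replicate 3) and 1.57 ± 0.3 in MDA-MB-231 (adjusted p = 0.000217). IFITM3 had 15.2, 15.2 and 22.6 CPM in A549 3D, against 3.32, 2.55 and 2.53 CPM in A549 2D, and 229, 251 and 246 CPM in MDA-MB-231 3D, against 81, 101 and 83.9 CPM in MDA-MB-231 2D. No 3D library of either line came down to its 2D libraries. The log2 fold change of IFITM3 was 2.73 ± 0.18 in A549 (adjusted p = 3.95e-09) and 1.45 ± 0.12 in MDA-MB-231 (adjusted p = 5.73e-08). IFITM2 had 28.3, 29.7 and 35.9 CPM in A549 3D, against 7.41, 4.78 and 5 CPM in A549 2D, and 78, 82.6 and 79.5 CPM in MDA-MB-231 3D, against 38.4, 47.4 and 38.1 CPM in MDA-MB-231 2D. Every 3D library was again above every 2D library. IFITM2, a close copy of IFITM3 whose shared reads are split by estimate, rose by 2.47 ± 0.16 and 0.96 ± 0.12 in A549 and MDA-MB-231, so the separate values of this pair are uncertain.

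The 6 IFI genes, named only for their induction by interferon, all rose in A549, and 3 of them rose in MDA-MB-231. IFI27, a small protein of the mitochondrial or nuclear envelope, had 2.76, 1.37 and 19.2 CPM in A549 3D, against 0.276, 0.0532 and 0 CPM in A549 2D. In MDA-MB-231 IFI27 had 37.9, 42.7 and 42.1 CPM in 3D, against 3.8, 3.25 and 4.3 CPM in 2D. It was the member with the largest called rise in MDA-MB-231, at 3.43 ± 0.44 on the log2 scale (adjusted p = 4.69e-06), and the libraries of the 2 cultures were apart in both lines. The A549 change of IFI27 was 6.51 ± 0.95 (adjusted p = 2.08e-05) with all libraries and 4.24 without A549 3D replicate 3. IFI6, which restrains cell death at mitochondria and virus replication at the endoplasmic reticulum, had 34.3, 16.2 and 102 CPM in A549 3D, against 2.27, 2.23 and 2.7 CPM in A549 2D. It had 10.2, 7.55 and 7.67 CPM in MDA-MB-231 3D, against 3.25, 2.8 and 2.99 CPM in MDA-MB-231 2D. Again no library of 3D overlapped 2D, with log2 fold changes of 4.52 ± 0.5 in A549 (adjusted p = 1.04e-06, and 3.45 without A549 3D replicate 3) and 1.46 ± 0.52 in MDA-MB-231 (adjusted p = 0.0219). The MDA-MB-231 call of IFI6 was lost, at an adjusted p of 0.0527 to 0.0647, without MDA-MB-231 3D replicate 1, 2D replicate 2 or 2D replicate 3.

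IFI35, a cytoplasmic modulator of the response, had 47, 35 and 71.2 CPM in A549 3D, against 7.24, 7.87 and 6.8 CPM in A549 2D, and 20, 20.7 and 20.2 CPM in MDA-MB-231 3D, against 7.05, 8.27 and 8.64 CPM in MDA-MB-231 2D. The 2 lines had like levels of IFI35 in 2D, and the cultures did not overlap in either. It rose by 2.86 ± 0.19 in A549 (adjusted p = 4.91e-09) and by 1.35 ± 0.19 in MDA-MB-231 (adjusted p = 1.4e-05) on the log2 scale. IFI44 and its neighbour IFI44L, proteins of little known function in the same chromosomal cluster, passed in A549 and not in MDA-MB-231. IFI44L had 0.376, 0.195 and 3.12 CPM in A549 3D and not a single read in A549 2D, so that it was at least 39.4-fold higher in 3D (adjusted p = 0.000161), with a floor of 3 counts over the 2D group. Replicate 3 held 79 of the 83 reads, and without it the same floor gives at least 5.57-fold. IFI44L in MDA-MB-231 was equally low, at 0.622, 0.472 and 0.822 CPM in 3D, against 0.675, 0.497 and 0.868 CPM in 2D, and did not pass (-0.09 ± 0.66, adjusted p = 0.931). IFI44 had 1, 0 and 3.12 CPM in A549 3D, against 0, 0.213 and 0 CPM in A549 2D, and these groups overlapped although the test passed (4.73 ± 0.83, adjusted p = 0.000131, and 2.93 with adjusted p = 0.0365 without A549 3D replicate 3). IFI44 in MDA-MB-231 had 27.4, 22 and 22.4 CPM in 3D, against 34.4, 32.8 and 32.6 CPM in 2D, and just missed the threshold (-0.49 ± 0.21, adjusted p = 0.0514). IFI16, a sensor of nuclear DNA, had 4.26, 3.71 and 5.56 CPM in A549 3D, against 3.98, 2.39 and 2.02 CPM in A549 2D, with overlap. Its rise of 0.8 ± 0.21 (adjusted p = 0.00349) was 0.53 with an adjusted p of 0.123 without A549 3D replicate 3. IFI16 in MDA-MB-231 was far higher, with 143, 157 and 150 CPM in 3D, against 144, 146 and 155 CPM in 2D, and did not pass (0.02 ± 0.11).

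Large GTPases of the MX and GBP families coat and disrupt viral particles or the membranes of intracellular microbes. All 5 members rose in A549, and 2 rose and 1 fell in MDA-MB-231. MX1 had 7.02, 2.73 and 53.4 CPM in A549 3D, against 1.05, 0.957 and 1.18 CPM in A549 2D. The 3D libraries were above all 2D libraries, but replicate 3 held most of the signal, and the log2 fold change was 4.6 ± 0.75 with it (adjusted p = 6.28e-05) and 2.31 without it (adjusted p = 2.47e-05). MX1 in MDA-MB-231 had 16.4, 20.3 and 19.2 CPM in 3D, against 15.9, 14.9 and 14.5 CPM in 2D, apart but not past the test (0.32 ± 0.52, adjusted p = 0.616). MX2 had 0.251, 0.195 and 0.868 CPM in A549 3D and no read in A549 2D, at least 11.9-fold higher in 3D with reads pooled. Replicate 3 held 22 of the 25 reads of MX2, and the 3 others are at the floor, so that no fold can be given without it. In MDA-MB-231 MX2 had 6.04, 6.97 and 6.08 CPM in 3D, against 2.15, 2.94 and 2.43 CPM in 2D, with no overlap and a log2 fold change of 1.35 ± 0.22 (adjusted p = 0.000105). GBP1 had 1.13, 0.586 and 1.42 CPM in A549 3D, against 0.719, 0.851 and 0.674 CPM in A549 2D, and 56.2, 59 and 60.5 CPM in MDA-MB-231 3D, against 61.9, 59.2 and 65.5 CPM in MDA-MB-231 2D. The cultures overlapped for GBP1 in both lines. Its call in A549 (0.71 ± 0.26, adjusted p = 0.0269) was lost without A549 3D replicate 3, A549 2D replicate 1 or A549 2D replicate 3, at an adjusted p of 0.621, 0.0633 and 0.0767, and the value was -0.02 on log2(TPM + 1). GBP2 rose by 1.91 ± 0.13 in A549 and 0.57 ± 0.08 in MDA-MB-231, whereas GBP3 rose by 2.42 ± 0.17 in A549 and fell by 0.65 in MDA-MB-231, where it was 0.03 with a trend in gene length and GC content removed. GBP genes resemble each other, so reads shared between them are split by estimate.

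ISG15 is a ubiquitin-like protein, UBE2L6 the enzyme that carries it, HERC5 is its main ligase in human cells and HERC6 in mouse cells, and USP18 removes ISG15 and damps receptor signalling. In this set 4 of 5 members rose and 1 fell in A549, and 2 rose and 2 fell in MDA-MB-231. ISG15 had 12.3, 5.47 and 35.7 CPM in A549 3D, against 0.663, 1.49 and 1.63 CPM in A549 2D, and 77.1, 60.8 and 64.9 CPM in MDA-MB-231 3D, against 28.6, 30.2 and 31.6 CPM in MDA-MB-231 2D. Its 3D libraries were above the 2D libraries in both lines. ISG15 rose by 4.06 ± 0.51 in A549 (adjusted p = 4e-06, and 2.9 without A549 3D replicate 3) and by 1.16 ± 0.32 in MDA-MB-231 (adjusted p = 0.00406) on the log2 scale. HERC5 went the other way. It had 6.14, 5.86 and 9.11 CPM in A549 3D, against 11.2, 13 and 14.4 CPM in A549 2D, and 45.8, 39.3 and 41.3 CPM in MDA-MB-231 3D, against 65.4, 62.7 and 69.3 CPM in MDA-MB-231 2D. Here every 3D library was below every 2D library in both lines. The log2 fold change of HERC5 was -0.75 ± 0.15 in A549 (adjusted p = 0.000462) and -0.65 ± 0.11 in MDA-MB-231 (adjusted p = 0.000104). UBE2L6 rose in both lines (1.41 ± 0.21 and 1.09 ± 0.19), while HERC6, the neighbour of HERC5, rose by 1.49 ± 0.24 in A549 and fell by 0.58 in MDA-MB-231 (adjusted p = 0.0265). That fall of HERC6 had an adjusted p of 0.0517 to 0.102 when any library but MDA-MB-231 3D replicate 1 was left out. USP18 had 13.8, 15.6 and 19.3 CPM in A549 3D, against 12.7, 11.1 and 11.8 CPM in A549 2D, and 1.87, 3.2 and 2.41 CPM in MDA-MB-231 3D, against 2.11, 2.48 and 2.13 CPM in MDA-MB-231 2D. The A549 cultures were apart for USP18 and the MDA-MB-231 cultures overlapped. Its small A549 rise of 0.49 ± 0.14 (adjusted p = 0.00644) did not pass without A549 3D replicate 3 (0.29, adjusted p = 0.105), and was -0.11 on log2(TPM + 1).

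Among 11 other antiviral effectors, all 10 tested members rose in A549, and 3 rose and 5 fell in MDA-MB-231. BST2, or tetherin, holds budding virus at the cell surface. It had 1.25, 0.391 and 2.13 CPM in A549 3D, against 0, 0.0532 and 0 CPM in A549 2D, where 1 read was counted, a 93.9-fold ratio with an exact 95% counting interval of 16.3 to 3760. Replicate 3 held 54 of the 66 reads of BST2 in A549 3D, and without it the ratio is 50.1 (7.41 to 2140). BST2 in MDA-MB-231 had 180, 162 and 176 CPM in 3D, against 48.7, 41.4 and 41.9 CPM in 2D. The cultures did not overlap in either line, and the MDA-MB-231 log2 fold change was 1.97 ± 0.12 (adjusted p = 3.51e-09). LGALS3BP had 230, 181 and 346 CPM in A549 3D, against 73.2, 72 and 73 CPM in A549 2D, and 700, 703 and 734 CPM in MDA-MB-231 3D, against 276, 318 and 257 CPM in MDA-MB-231 2D. It was thus at least 2-fold higher in 3D in both lines without overlap, with log2 fold changes of 1.81 ± 0.17 (adjusted p = 1.46e-07) in A549 and 1.33 ± 0.16 (adjusted p = 2.55e-06) in MDA-MB-231. ISG20, an exonuclease, rose by 2.65 ± 0.15 in A549 and by 0.7 ± 0.14 in MDA-MB-231. RSAD2, or viperin, which makes a chain-terminating nucleotide, had 0.251, 0 and 0.671 CPM in A549 3D and no read in A549 2D, at least 9.01-fold higher with reads pooled, of which replicate 3 held 17 of 19. The A549 libraries of RSAD2 overlapped at 0, and its adjusted p of 0.00246 became 0.0941 without A549 3D replicate 3. CMPK2, the neighbour of RSAD2 that was not tested, had 0.627, 0.391 and 3.67 CPM in A549 3D, against 0.221, 0.159 and 0.393 CPM in A549 2D.

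SAMD9, SAMD9L, DDX60, XAF1 and PLSCR1 rose in A549 and fell in MDA-MB-231, but none of these 5 falls passed with the length and GC trend removed. SAMD9, which stalls protein synthesis in infected cells, had 35.1, 33 and 46.3 CPM in A549 3D, against 30.6, 31.7 and 29.4 CPM in A549 2D, and 42.8, 29.8 and 28.3 CPM in MDA-MB-231 3D, against 77.1, 78.8 and 86.5 CPM in MDA-MB-231 2D. SAMD9 had the largest called fall in MDA-MB-231 (-1.28 ± 0.14, adjusted p = 9.34e-07), with the cultures fully apart. Its A549 rise was small (0.35 ± 0.15, adjusted p = 0.0447) and did not pass without A549 3D replicate 3 or any of the A549 2D libraries, at an adjusted p of 0.384 and of 0.0795 to 0.128, and the value was -0.2 on log2(TPM + 1). XAF1, a cell death factor, had 0.125, 0.195 and 1.89 CPM in A549 3D, against 0, 0 and 0.0562 CPM in A549 2D, where 1 read was counted, and its 71.1-fold ratio has a counting interval of 12.2 to 2860. Replicate 3 held 48 of the 50 reads, and without that library the adjusted p was 0.109. XAF1 in MDA-MB-231 had 3.11, 4.19 and 3.62 CPM in 3D, against 6.92, 6.68 and 7.03 CPM in 2D, without overlap (-0.9 ± 0.29, adjusted p = 0.0132, and 0.0516 without MDA-MB-231 3D replicate 1). PLSCR1, a phospholipid-binding restriction factor, had 66.3, 70.5 and 89.1 CPM in A549 3D, against 38.3, 37.6 and 37.8 CPM in A549 2D, and 18.7, 17.8 and 19.3 CPM in MDA-MB-231 3D, against 24.5, 25.8 and 23.8 CPM in MDA-MB-231 2D. The libraries were apart in both lines and in opposite order (1.01 ± 0.1 in A549, adjusted p = 3.13e-07, and -0.41 ± 0.11 in MDA-MB-231, adjusted p = 0.00274, or 0.22 with the length and GC trend removed). DDX60 changed by 1.8 ± 0.22 in A549 and -0.84 ± 0.21 in MDA-MB-231, and SAMD9L by 1.13 ± 0.15 and -0.9 ± 0.11. EPSTI1 was low in A549, with 13 reads in 3D and 4 in 2D, and its rise (2.1 ± 0.58, adjusted p = 0.00607) had an adjusted p of 0.0802 without A549 3D replicate 3.

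The ADP-ribosyltransferases PARP9 and PARP14 and DTX3L, the ligase partner of PARP9, all rose in A549, and PARP14 fell in MDA-MB-231. PARP9 had 36, 38.3 and 76.6 CPM in A549 3D, against 13.3, 13.8 and 14.8 CPM in A549 2D, and 10.1, 11 and 10.1 CPM in MDA-MB-231 3D, against 14.3, 15.8 and 14.6 CPM in MDA-MB-231 2D. The cultures did not overlap in either line, but the MDA-MB-231 value did not pass (1.91 ± 0.21, adjusted p = 1.19e-06 in A549, and -0.51 ± 0.23, adjusted p = 0.0587 in MDA-MB-231). PARP14 had 133, 137 and 201 CPM in A549 3D, against 94, 94 and 91.3 CPM in A549 2D, and 45.7, 45.2 and 44.3 CPM in MDA-MB-231 3D, against 55.5, 57.7 and 59.8 CPM in MDA-MB-231 2D. It too was apart in both lines in opposite order, by 0.77 ± 0.12 in A549 (adjusted p = 4.22e-05) and -0.36 ± 0.12 in MDA-MB-231 (adjusted p = 0.0182). The MDA-MB-231 call of PARP14 was lost without 3D replicate 3 or 2D replicate 3, at an adjusted p of 0.0565 and 0.0577, and its value there was 0.18 with the length and GC trend removed.

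Of 3 TRIM and nuclear body members and 2 enzymes that bind double-stranded RNA, 1 rose in A549. TRIM22, a ubiquitin ligase, rose by 3.58 ± 0.27 there, but TRIM21, an antibody receptor of the cytosol, and SP100, a nuclear body protein, had log2 values of 0.06 ± 0.15 and 0.17 ± 0.1 and did not pass. SP100 had 41.1, 39.5 and 54 CPM in A549 3D, against 40.5, 41 and 40.7 CPM in A549 2D, and 64.1, 72.8 and 69.6 CPM in MDA-MB-231 3D, against 77.6, 76.5 and 75.3 CPM in MDA-MB-231 2D. For SP100 the A549 cultures overlapped and those of MDA-MB-231 did not, with 3D lower, and neither passed. ADAR had 323, 248 and 426 CPM in A549 3D, against 300, 290 and 293 CPM in A549 2D, and 219, 230 and 236 CPM in MDA-MB-231 3D, against 191, 196 and 194 CPM in MDA-MB-231 2D. The A549 cultures overlapped and the MDA-MB-231 cultures did not, and neither value passed (0.18 ± 0.13, adjusted p = 0.233, and 0.24 ± 0.13, adjusted p = 0.123). Without A549 3D replicate 2 the A549 values of ADAR and SP100 passed, at 0.35 with an adjusted p of 0.00219 and 0.25 with an adjusted p of 0.026. EIF2AK2, or PKR, which stops translation when it binds double-stranded RNA, had 67.6, 62.1 and 76.1 CPM in A549 3D, against 67.1, 70.5 and 65.9 CPM in A549 2D, with overlap (0.03 ± 0.09, adjusted p = 0.799). In MDA-MB-231 EIF2AK2 had 51, 43.1 and 44.7 CPM in 3D, against 98.5, 94.5 and 102 CPM in 2D, without overlap (-1.09 ± 0.09, adjusted p = 3.87e-08). On log2(TPM + 1), where the median A549 value of all tested genes was -0.44, TRIM21, SP100, ADAR and EIF2AK2 had A549 values of -0.54, -0.39, -0.4 and -0.51.

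**Figure D2:**
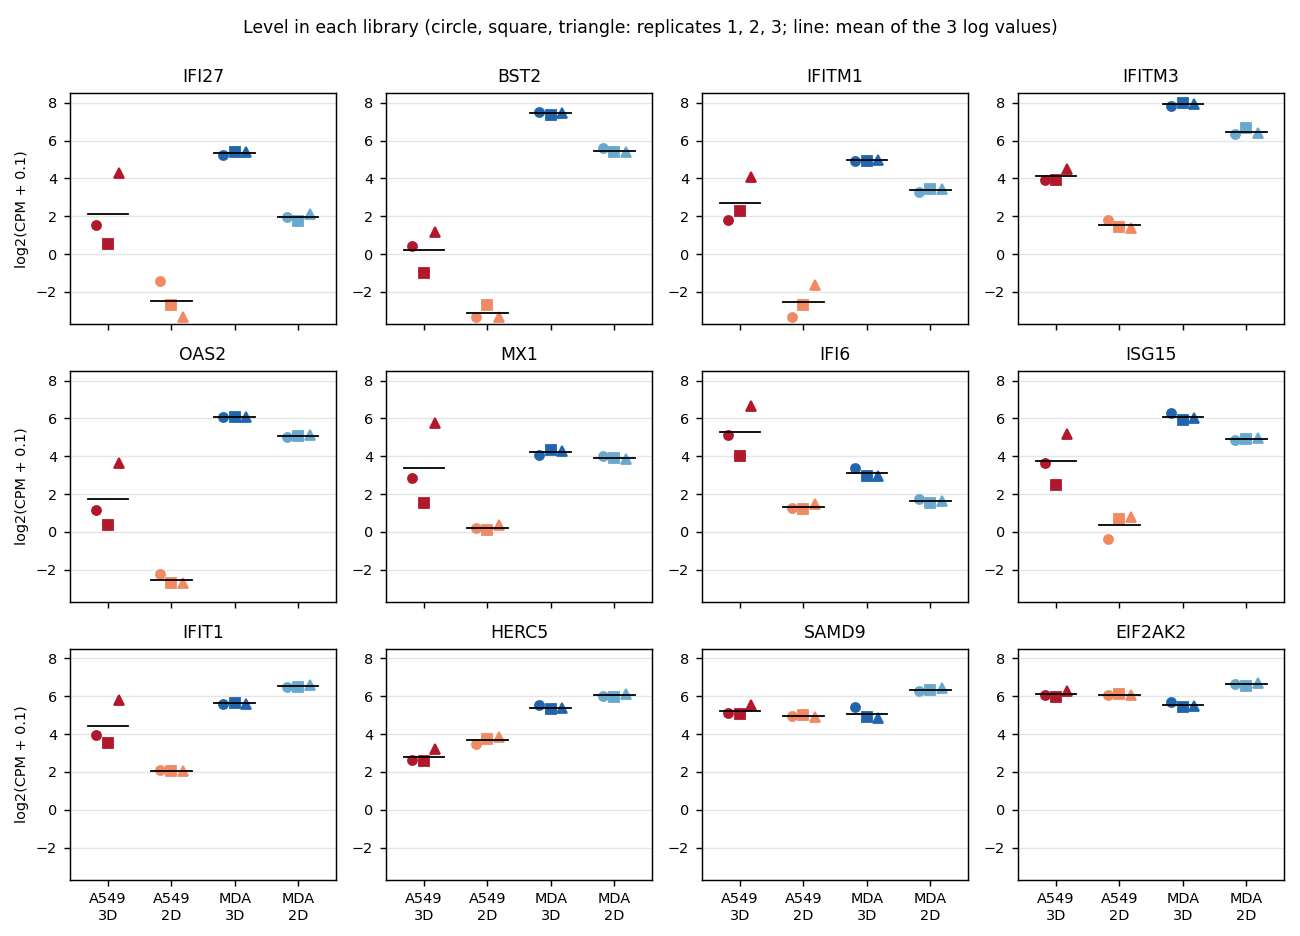
Level of 12 members in each of the 12 libraries as log2(CPM + 0.1), a log axis, with A549 3D, A549 2D, MDA-MB-231 3D and MDA-MB-231 2D (MDA) from left to right. Circles, squares and triangles are replicates 1, 2 and 3, and lines are means of the 3 log values. A549 3D replicate 3 is the highest A549 library for 11 of the 12 members shown, and HERC5 is lower in 3D than in 2D in both lines.

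The A549 3D libraries differed among themselves in these genes more than in others. Of 41 tested members with a mean of at least 1 CPM in A549 3D, replicate 3 was the highest library for 39, or 95.1%, where it was the highest for 43% of all tested genes with that level. The ratio of the highest to the lowest A549 3D library had a median of 1.84 over these members and 1.35 over all such genes, and was 19.5 for MX1. In the other groups the median ratio of the members was 1.1 to 1.14. Replicate 3 was also the deepest library of the series, with 28171901 expected counts. A549 3D replicates 1 and 2 had 9873213 and 5609327. The shares of reads given above for replicate 3 thus reflect depth as well as level. Without it, 32 of the 39 members still rose and the median log2 fold change of the members was 1.75. The 7 members whose call was lost were IFI16, GBP1, USP18, RSAD2, XAF1, SAMD9 and EPSTI1. For 15 of the 40 called members the fold change moved by more than 1.5-fold, among them MX1, OAS2, IFI27 and ISG15. OAS1 had a log2 fold change of 3.53 and ISG20 of 2.75 without replicate 3.

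**Figure D3:**
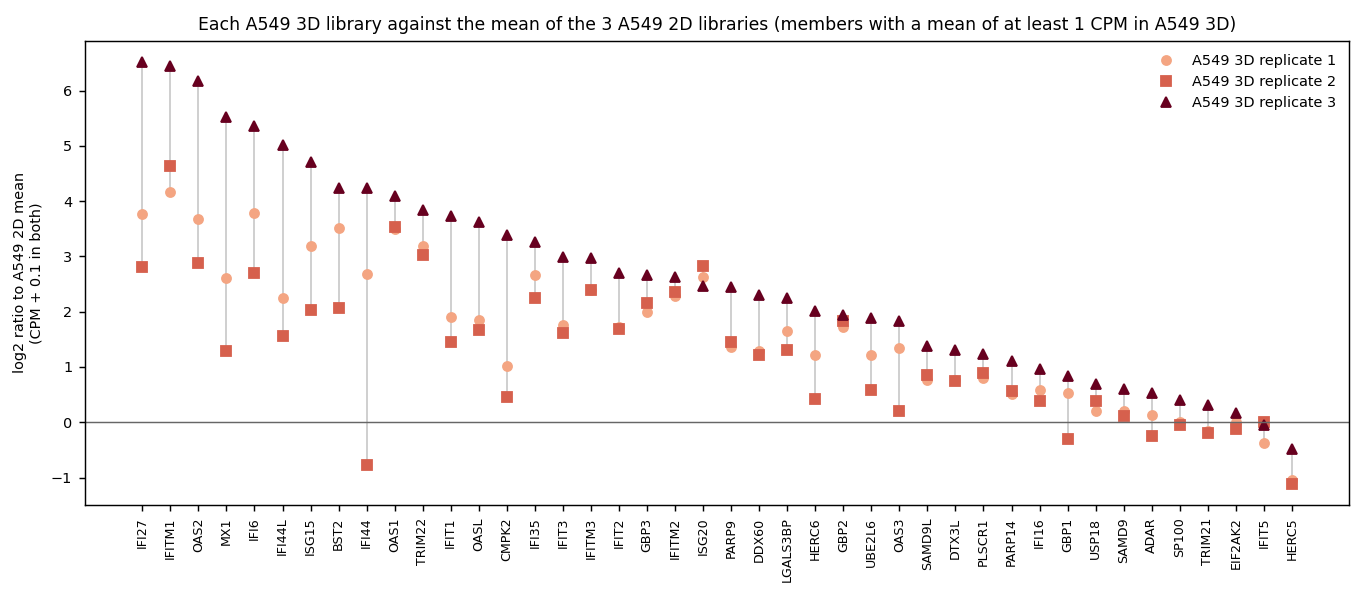
Log2 ratio of each A549 3D library to the mean of the 3 A549 2D libraries, with 0.1 CPM added to both, for members with a mean of at least 1 CPM in A549 3D. Circles, squares and triangles are replicates 1, 2 and 3, grey lines join the lowest and highest, and members are ordered by replicate 3. Replicate 3 is the highest for nearly every member, and for IFI44 replicate 2 held no read.

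In MDA-MB-231 the direction of a member went with the length and base composition of its transcripts, as it did across all genes. The 16 members that rose had a median length of 1257 bases and a median GC content of 54.9%, and the 13 that fell had 4034 bases and 40%. Over all tested genes the medians were 2350 bases and 55.7% for genes that rose and 3805 bases and 41.6% for those that fell. A trend in length and GC content was removed from each library, a setting chosen after seeing the data. With it removed 17 members rose and 2 fell, with a median log2 value of 0.29. Over all tested genes 8688 of 15304 passed in that setting, with a median of 0.02. The 2 falls that remained were HERC5 (-0.27, adjusted p = 0.0203) and EIF2AK2 (-0.26, adjusted p = 0.0283). SAMD9 then had -0.25 (adjusted p = 0.189), IFIT1 -0.34 (adjusted p = 0.335) and XAF1 -0.42 (adjusted p = 0.208). Of the 16 rises 11 remained, among them IFI27 (2.88), BST2 (1.14), IFITM1 (0.91), LGALS3BP (0.74) and MX2 (1.37). OASL, IFITM2, IFI6, ISG15 and ISG20 no longer passed, and ISG15 had 0.07 (adjusted p = 0.852). The other 6 of the 17 rises were new calls, those of IFIT5, IFI16, GBP1, RSAD2, SP100 and ADAR. IFIT5 was a called fall as fitted, so the setting also reversed a call. In A549 the same setting gave 40 rises and 1 fall and a median of 2.15. There 10534 of 15304 tested genes passed, with a median of -0.01. Whether length and GC content themselves produce the MDA-MB-231 changes was not tested.

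**Figure D4:**
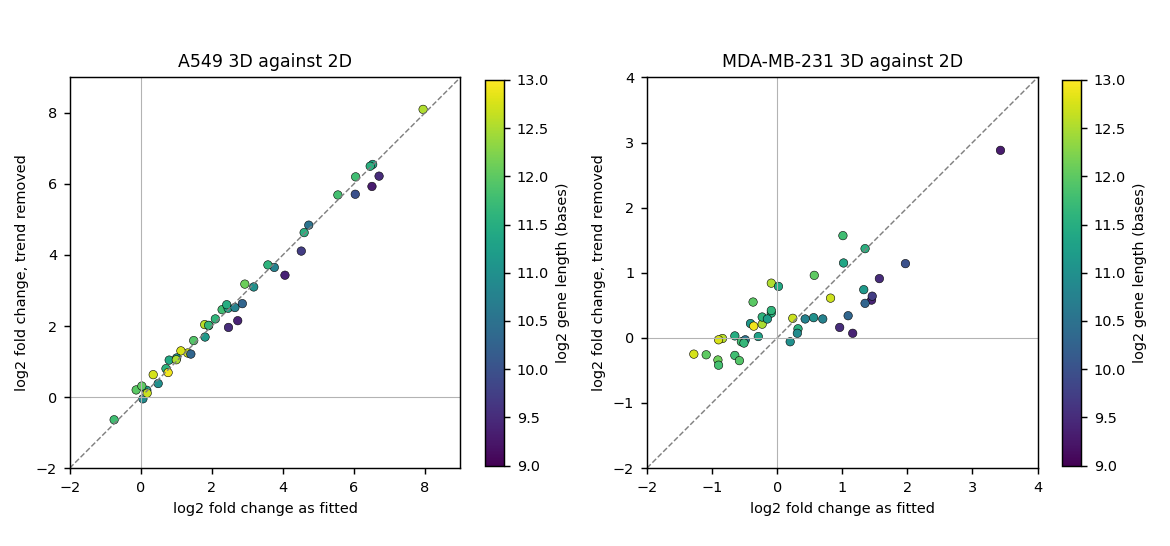
Log2 fold change of 3D over 2D as fitted (horizontal) against the value with the trend in gene length and GC content removed (vertical), for the 45 tested members, in A549 on the left and MDA-MB-231 on the right. Colour is log2 gene length in bases and the dashed line marks equal values. A549 members lie near the line. In MDA-MB-231 long members that fell move up towards 0 or past it, and short members that rose move down.

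The lines differed in their response to 3D culture for most members. In the test of the difference itself, 35 of 45 members had a higher signed log2 change in A549 than in MDA-MB-231, and 0 had a lower one, where 29.3% of all tested genes passed on the higher side and 26.7% on the lower, 56.1% in all. At an unadjusted p under 0.05 the counts were 37 and 0 by edgeR, DESeq2 gave 35 and 0 at an adjusted p under 0.05, and limma on log2(TPM + 1) gave 28 and 1. The sign and not the size is tested here, and EIF2AK2 and SAMD9, which are among the 35, changed more in MDA-MB-231. The median difference was 2.08 on the log2 scale over the members and 0.07 over all tested genes. After IFI44L, whose size cannot be fixed because A549 2D had no read, the largest differences were those of XAF1 (6.45 ± 1.03, adjusted p = 7.32e-05), OAS2 (5.51 ± 1.05, adjusted p = 0.000346), IFI44 (5.22 ± 0.85, adjusted p = 9.18e-05) and IFITM1 (5.14 ± 0.95, adjusted p = 0.000273). The A549 side of these rests on few reads in 2D, from 1 for XAF1 to 5 for IFITM1. Members with more reads in every group also differed, with OAS1 at 3.34 ± 0.28 (adjusted p = 1.09e-07), GBP3 at 3.06 ± 0.21 (adjusted p = 1.22e-08) and IFIT2 at 2.84 ± 0.27 (adjusted p = 4.73e-07). The difference did not pass for OAS3 (0.5 ± 0.34), UBE2L6 (0.32 ± 0.28), LGALS3BP (0.48 ± 0.23) and IFI27 (3.07 ± 1.43), which rose in both lines, nor for HERC5 (-0.1 ± 0.19), which fell in both. Without A549 3D replicate 3 the count was 31 higher and 1 lower, which was TRIM21 at -0.5 (adjusted p = 0.0335). On log2(TPM + 1) values MX2 and BST2 had differences of -0.5 and -0.44. In A549 MX2 had 0.143 TPM in 3D and 0 TPM in 2D, and BST2 had 1.3 and 0.0267 TPM. At such levels the added 1 shrinks the A549 log2 change.

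In flat culture most members were lower in A549. In 2D, 33 of 45 members were lower and 5 higher in A549 than in MDA-MB-231. Of all tested genes, 38.8% were lower and 42.8% higher, 81.6% in all. The median log2 value was -2.49 over the members and 0.07 over all tested genes. With the 2 A549 groups fitted alone, only 38 of the 45 had enough reads to be tested. The others were tested here through MDA-MB-231, so they could hardly come out higher in A549, and their calls add no support. BST2 had 1 read in A549 2D, against 3037 reads in MDA-MB-231 2D, a 2410-fold lower level in A549 with a counting interval of 432 to 95300. MX2, IFI44L and RSAD2 were at least 45.5-fold, 12.4-fold and 11.4-fold lower in A549. XAF1 was 376-fold lower, with an interval of 67.2 to 14900, and IFI44 and OAS2, with 4 reads each in A549 2D, had log2 values of -8.7 ± 0.48 and -8.69 ± 0.67 (adjusted p = 9.93e-11 and 6.48e-09). The members higher in A549 2D were USP18 (2.4 ± 0.17, adjusted p = 1.51e-09), OAS1 (2.01 ± 0.19, adjusted p = 8.32e-08), PARP14 (0.69 ± 0.12, adjusted p = 6.71e-05), PLSCR1 (0.62 ± 0.1, adjusted p = 3.17e-05) and ADAR (0.6 ± 0.13, adjusted p = 0.000528). On log2(TPM + 1) the last 3 had negative values, with -0.09, -0.18 and -0.18 for PARP14, PLSCR1 and ADAR. The median of all tested genes was -0.66 on that scale, so the 3 stayed above it.

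In 3D, 24 members were lower and 15 higher in A549 than in MDA-MB-231. Of all tested genes, 39.2% were lower and 43.9% higher, 83.0% in all. The filter over all 4 groups limits these counts too. In this comparison the median over the members was -0.66. It was -1.47 without A549 3D replicate 3. OAS1 (5.35 ± 0.18, adjusted p = 2.16e-13), IFI6 (2.73 ± 0.43, adjusted p = 2.21e-05), USP18 (2.7 ± 0.17, adjusted p = 6.25e-10), PARP9 (2.33 ± 0.22, adjusted p = 7.71e-08) and PLSCR1 (2.03 ± 0.11, adjusted p = 4.34e-11) had the largest excess in A549 3D. Without A549 3D replicate 3 the value of IFI6 was 1.65 (adjusted p = 7.67e-06), below those of USP18 (2.5), PLSCR1 (1.87) and PARP9 (1.82). BST2 (-6.69 ± 0.19), GBP1 (-5.57 ± 0.15), IFI16 (-4.94 ± 0.16), IFITM3 (-3.7 ± 0.14) and IFI44 (-3.48 ± 0.32) had the largest deficit, each past the test. MX1, IFIT1, IFIT5, HERC6, SAMD9 and TRIM21 did not pass in 3D, and IFIT1, MX1, HERC6 and SAMD9 were lower in A549 in 2D.

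Promoter sequence was looked up to see what the members share apart from their level. RefSeq windows (assembly GRCh38.p14, from 250 bases before to 50 bases after the annotated start) were at hand for 38 of the 46 members, and those of OAS2, OASL, IFIT2, IFITM2, MX2, GBP2, USP18 and TRIM22 were not used here. The ISRE core, searched as GAAA, any 2 bases and GAAA on both strands with overlapping matches counted separately, was in a window of 28 of the 38 members, or 73.7%, and in that of 4.38% of 27305 genes. The gamma-activated site motif (GAS), searched in the same way as TTC, any 3 bases and GAA, was in 11 members, or 28.9%, and in 9.38% of genes. Members with and without the ISRE core both rose in A549, with 24 of 28 and 7 of 10 called higher, where 34.1% of all tested genes rose. The 10 include CMPK2, which was not tested. In MDA-MB-231 9 of 28 members with the core rose and 9 fell, and 2 of 10 without it rose and 3 fell. Of all tested genes 33.4% rose there and 34.2% fell, so the counts with the core lie near the background. Of the members that fell there, only HERC5 and EIF2AK2, both with the core, still passed with the length and GC trend removed. The core was present in members that went up and members that went down, and the MDA-MB-231 counts do not tie it to either direction. A match is a description of the letters and not a bound site, and no match means only that these letters are not in the window. The sequences below show 2 genes that rose in both lines (IFI27 and BST2), 1 that moved in opposite directions (IFIT1), 1 that fell in MDA-MB-231 alone (EIF2AK2) and OAS1, which rose in A549 alone and whose window holds no core of these letters. Capitals mark the ISRE core on either strand, so that TTTC, 2 bases and TTTC is its reverse complement. They lie at chr14:94110486-94110785 on the plus strand, chr19:17405581-17405880 on the minus strand, chr10:89392373-89392672 on the plus strand, chr2:37156931-37157230 on the minus strand and chr12:112906712-112907011 on the plus strand, and are written 5' to 3' in the direction of the gene.
IFI27: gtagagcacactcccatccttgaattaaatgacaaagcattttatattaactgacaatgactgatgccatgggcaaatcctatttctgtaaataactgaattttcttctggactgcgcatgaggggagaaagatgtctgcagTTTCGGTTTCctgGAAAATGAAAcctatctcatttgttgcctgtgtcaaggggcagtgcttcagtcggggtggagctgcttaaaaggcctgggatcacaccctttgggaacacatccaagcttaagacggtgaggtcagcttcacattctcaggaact
BST2: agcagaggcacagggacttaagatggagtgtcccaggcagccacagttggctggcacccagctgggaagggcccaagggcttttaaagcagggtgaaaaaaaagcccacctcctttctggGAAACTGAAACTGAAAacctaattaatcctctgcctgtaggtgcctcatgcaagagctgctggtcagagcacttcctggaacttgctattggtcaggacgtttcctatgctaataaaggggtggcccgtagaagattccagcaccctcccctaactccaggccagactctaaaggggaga
IFIT1: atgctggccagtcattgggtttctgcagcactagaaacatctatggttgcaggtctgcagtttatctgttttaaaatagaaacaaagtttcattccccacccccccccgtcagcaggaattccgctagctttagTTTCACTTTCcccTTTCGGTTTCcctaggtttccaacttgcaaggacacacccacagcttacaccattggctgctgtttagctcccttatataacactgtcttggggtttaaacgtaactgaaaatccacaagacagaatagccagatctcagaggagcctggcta
EIF2AK2: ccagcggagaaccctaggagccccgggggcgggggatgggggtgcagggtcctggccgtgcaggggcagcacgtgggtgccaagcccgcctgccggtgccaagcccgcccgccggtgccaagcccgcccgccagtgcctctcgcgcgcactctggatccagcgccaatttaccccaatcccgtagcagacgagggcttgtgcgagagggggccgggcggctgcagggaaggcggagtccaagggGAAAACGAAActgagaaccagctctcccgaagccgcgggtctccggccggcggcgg
OAS1: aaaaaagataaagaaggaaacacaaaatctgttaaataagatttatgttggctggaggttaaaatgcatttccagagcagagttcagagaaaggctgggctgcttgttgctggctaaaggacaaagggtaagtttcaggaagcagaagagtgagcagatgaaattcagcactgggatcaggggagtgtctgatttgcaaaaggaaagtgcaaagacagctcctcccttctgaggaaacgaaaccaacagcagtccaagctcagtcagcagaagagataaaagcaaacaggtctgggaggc
IFI27 and IFIT1 hold 2 cores each, BST2 holds 2 that overlap, and EIF2AK2 holds 1. Capitals thus stand in the window of IFI27, which rose 3.43 in MDA-MB-231, and of EIF2AK2, which fell by 1.09 on the log2 scale there. Both are values as fitted, and both were smaller in size with the length and GC trend removed.

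Neighbouring members did not always move alike. By RefSeq gene order, 25 of the 46 members lie in 11 runs of adjacent protein-coding genes. The IFITM run on chromosome 11 and the OAS run on chromosome 12 rose together in A549. In the HERC6 and HERC5 pair on chromosome 4, HERC6 rose and HERC5 fell in A549, and in the IFIT1 and IFIT5 pair on chromosome 10, IFIT1 rose and IFIT5 did not pass. In the GBP3, GBP1 and GBP2 run on chromosome 1, GBP2 rose and GBP3 fell in MDA-MB-231. Adjacent genes can share reads, and the strand setting of the counts is not given, so neighbours that overlap are uncertain.

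Genes that act before the effectors were described from further lists, whose counts stand beside 34.1% higher and 31.5% lower among all tested genes in A549 and 33.4% and 34.2% in MDA-MB-231. Interferon genes themselves were at or near 0 reads. Of 10 ligands, IFNA2, IFNG, IFNL2 and IFNL3 had 0 reads in every library, and IFNB1 had 1 read in all, which was in A549 3D replicate 3. The 1 ligand with enough reads to test, IFNE, had 2.13, 1.37 and 0.828 CPM in A549 3D, against 0.663, 0.744 and 0.843 CPM in A549 2D, with overlap, and did not pass (0.77 ± 0.4, adjusted p = 0.114, but 1.26 with adjusted p = 0.0164 without A549 3D replicate 3). Of 6 receptor chains, 4 rose in A549, and 2 rose and 4 fell in MDA-MB-231. IFNGR1, a receptor chain for interferon gamma, had 73.8, 87.5 and 86.2 CPM in A549 3D, against 33.4, 37.5 and 30.6 CPM in A549 2D (1.28 ± 0.1, adjusted p = 1.85e-08). IFNLR1, the receptor chain specific to type III interferon, had 1.07, 0.682 and 0.383 CPM in MDA-MB-231 3D, against 6.54, 5.83 and 6.08 CPM in MDA-MB-231 2D (-3.2 ± 0.23, adjusted p = 1.31e-08).

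Among 14 kinases, STAT and IRF factors, 8 rose and 1 fell in A549, and 6 rose and 2 fell in MDA-MB-231. IRF9 had 37.7, 23.8 and 50.1 CPM in A549 3D, against 7.02, 6.91 and 8.15 CPM in A549 2D, and rose by 2.4 ± 0.2 (adjusted p = 4.12e-08). STAT2 had 58.9, 57.4 and 82.4 CPM in A549 3D, against 32.7, 32.3 and 31.2 CPM in A549 2D, and rose by 1.07 ± 0.12 (adjusted p = 9.25e-07). Neither passed in MDA-MB-231, with IRF9 at 0.36 ± 0.19 and STAT2 at -0.15 ± 0.11. JAK1 was the 1 that fell in A549, with 202, 198 and 226 CPM in 3D, against 447, 456 and 442 CPM in 2D (-1.1 ± 0.07, adjusted p = 3.06e-09), and JAK2 fell in MDA-MB-231 (-1.6 ± 0.12, adjusted p = 1.52e-08). Of 12 tested sensors and adaptors, 6 rose and 3 fell in A549, and 6 rose and 4 fell in MDA-MB-231. AIM2, among the 12, was tested through MDA-MB-231 alone, with 0 reads in every A549 library. TMEM173, or STING, rose in both (2.68 ± 0.29 and 0.97 ± 0.09), IFIH1 in A549 (1.78 ± 0.19), IKBKE in MDA-MB-231 (1.01 ± 0.11), and the kinase TBK1 fell in both (-0.57 ± 0.11 and -0.9 ± 0.12).

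Among the receptors, IL10RB and IFNGR2 rose in both lines (0.87 ± 0.08 and 0.65 ± 0.1 in A549, 0.56 ± 0.08 and 0.27 ± 0.1 in MDA-MB-231), though the MDA-MB-231 value of IFNGR2 was -0.12 with the length and GC trend removed and -0.15 on log2(TPM + 1). Of 10 negative regulators, 4 rose and 5 fell in A549, and 4 rose and 4 fell in MDA-MB-231. SOCS3, an inhibitor of JAK kinases, had 5.77, 4.3 and 6.9 CPM in A549 3D, against 40.3, 41.7 and 45.5 CPM in A549 2D (-2.8 ± 0.12, adjusted p = 3.38e-11), and fell by 0.48 in MDA-MB-231. PIAS1, a SUMO ligase, rose in A549 (0.81 ± 0.08) and fell in MDA-MB-231 (-0.88 ± 0.08), the phosphatase PTPN6 rose in both (1.17 ± 0.12 and 0.93 ± 0.22), and PTPN11 fell in A549 (-0.71 ± 0.08). Genes that answer mainly to interferon gamma rose for 3 of 9 tested in A549, and 6 rose and 1 fell in MDA-MB-231. Several of the 9 were tested in A549 only through their reads in MDA-MB-231, so the A549 count is not a rate. CXCL10, GBP5, CIITA and GBP4 had 5 reads or fewer in A549 3D and 2 or fewer in A549 2D. The called A549 rise of GBP4 rests on 5 reads in 3D and 0 in 2D. CIITA, the master regulator of MHC class II genes, had 41.9, 44.9 and 48.5 CPM in MDA-MB-231 3D, against 7.72, 8.54 and 7.38 CPM in MDA-MB-231 2D (2.52 ± 0.11, adjusted p = 5.52e-10). The chemokine CXCL11 rose there too (2.96 ± 0.14, adjusted p = 7.6e-09), with 0 reads in every A549 library, as did CD74, the MHC class II chaperone (3.03 ± 0.1), and WARS, a tRNA synthetase (0.85 ± 0.09). In MDA-MB-231, CIITA, CXCL11 and CD74 had larger log2 changes than every tested member except IFI27.

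Markers of other cells were set beside these results. The 11 leukocyte markers summed to 20.1 to 29 CPM in A549 3D and 5.75 to 7.02 CPM in A549 2D, and to 21.1 to 23.3 CPM in MDA-MB-231 3D and 4.17 to 4.77 CPM in MDA-MB-231 2D. CD14 made up most of the 3D sums, at 17.2 to 23.8 CPM in A549 3D and 15.7 to 18.6 CPM in MDA-MB-231 3D. In A549 2D the highest was ITGAM, at 3.43 to 4.66 CPM. The defining markers CD3E, MS4A1 and TYROBP were at 0 in every library, with PTPRC at 0.564 CPM or less. The part of these markers in the results was not tested. Endothelial markers summed to 0.586 to 1.25 CPM in A549 3D and 0.0562 to 0.221 CPM in A549 2D, and fibroblast markers to 9.53 to 11.3 CPM and 6.91 to 9.55 CPM. In MDA-MB-231 the endothelial sums were 16.7 to 17.6 CPM in 3D and 11.9 to 12.8 CPM in 2D, mostly KDR, and the fibroblast sums were 11.8 to 12.4 CPM and 8.98 to 10.8 CPM.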

How the data were processed

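RNA sequencing libraries of A549 and MDA-MB-231 cells in 3D and 2D culture, 3 in each of 4 groups, were prepared from total RNA after ribosomal RNA removal, per the labels' protocols. The authors deposited expected counts, TPM and FPKM per gene, made with RSEM on hg19 per the submitters' processing notes. RSEM version, aligner, annotation and strandedness were not given in the sources used here. Total expected counts were 5609327 to 28171901 per library.

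Expected counts were rounded and tested in R 4.3.3 with edgeR 4.0.16: filterByExpr, TMM scaling, 1 model of 4 group means and the two-sided quasi-likelihood test, with Benjamini-Hochberg adjustment over 15304 genes at 0.05. Levels are TMM-normalised CPM, and the deposited TPM values were used to compare genes with each other. The deposited FPKM values were not used. limma 3.58.1 on log2 TPM and DESeq2 1.42.0 were alternatives, as were other scalings and filters, leaving out each library, and a replicate block. The 2 groups of a comparison were also fitted alone. A group at 0 reads was given a floor of 3 counts over the group, and such folds are lower bounds. Fitted values of IFI44L, MX2 and RSAD2 in A549 depend on the prior count. Counting intervals cover counting error only. The members and gene lists were chosen with earlier results of these data known. Values in every library were given for members with the largest called changes in each comparison (in 3D against 2D the 8 largest rises and 4 largest falls, otherwise the 5 largest either way) and the 5 members with the highest TPM in each group. Members at 0 reads in a group and up to 4 genes of each pathway list with the smallest p were also named. CMPK2 was shown because it was untested. Replicate numbers did not pair the libraries.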

Additional observations from a re-analysis of the deposited data

Results flagged for a closer look

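The effect of 3D against 2D culture differed between A549 and MDA-MB-231 for 35 members, by the edgeR test of the difference itself. All 35 had the higher signed log2 change in A549, though EIF2AK2 and SAMD9 changed more in MDA-MB-231. The differences, A549 minus MDA-MB-231 on the log2 scale, were largest for IFI44L (8.05), XAF1 (6.45), OAS2 (5.51), IFI44 (5.22), IFITM1 (5.14), MX2 (5.11), RSAD2 (5.03), MX1 (4.28), BST2 (4.07), IFIT1 (3.84), TRIM22 (3.81) and OAS1 (3.34). Those of IFI44L, MX2 and RSAD2 depend on the prior count, since A549 2D held no read of them.

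Next in size were GBP3 (3.06), IFI6 (3.06), ISG15 (2.89), IFIT2 (2.84), IFIT3 (2.76), DDX60 (2.64), OASL (2.62), PARP9 (2.42), EPSTI1 (2.19), HERC6 (2.08), SAMD9L (2.02) and ISG20 (1.95). Smaller ones were those of SAMD9 (1.63), IFITM2 (1.52), IFI35 (1.51), PLSCR1 (1.42), GBP2 (1.34), IFITM3 (1.28), DTX3L (1.23), PARP14 (1.12), EIF2AK2 (1.12), GBP1 (0.80) and IFI16 (0.79). Without A549 3D replicate 3 the calls of IFI16, GBP1, RSAD2 and EPSTI1 were lost.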

How the results depend on the processing

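Depth limits members near 0 reads in A549 2D. Leaving out each library in turn gave 32 to 41 members higher and 1 lower in A549 (median 1.75 to 2.45), 14 to 16 higher and 10 to 12 lower in MDA-MB-231 (median -0.01 to 0.12), and 31 to 40 higher and 0 to 1 lower for the difference between lines (median 1.52 to 2.18). Between lines it gave 5 higher and 32 to 33 lower in 2D (median -2.52 to -2.46), and 14 to 18 higher and 23 to 26 lower in 3D (median -1.47 to -0.47). With a replicate block the counts were 38 higher and 1 lower in A549, 17 and 14 in MDA-MB-231 and 35 and 0 for the difference. Of 15304 tested genes, 9667, 10077 and 8272 passed in these 3 comparisons. The numbers share no stated origin, and same-numbered libraries correlated at -0.0382, 0.113 and 0.0774 in A549 and -0.0381, 0.0664 and -0.186 in MDA-MB-231. DESeq2 gave 37 higher and 1 lower in A549 and 12 higher and 12 lower in MDA-MB-231, where OASL, IFIT1, ISG15 and XAF1 lost their calls at an adjusted p of 0.219, 0.0874, 0.055 and 0.262. It gave no adjusted p for OAS2 and IFI27 in either line. By DESeq2 9811 of all genes passed in A549 and 10186 in MDA-MB-231.

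limma on log2(TPM + 1) gave 27 members higher (median 0.76) and 6 lower in A549, with GBP1 at -0.02, USP18 -0.11, SAMD9 -0.2, TRIM21 -0.54, SP100 -0.39, ADAR -0.4, EIF2AK2 -0.51 and the kinase IKBKE -0.42. It gave 9 higher and 22 lower in MDA-MB-231, with IFI16 at -0.4, IFNGR2 -0.15 and JAK1 -0.34, and 28 higher and 1 lower for the difference, with MX2 at -0.5 and BST2 -0.44. Between lines it gave 2 higher and 36 lower in 2D, with PARP14 at -0.09, PLSCR1 -0.18 and ADAR -0.18, and 8 higher and 30 lower in 3D. With 0.1 in place of 1 the A549 counts were 30 higher (median 1.18) and 6 lower, with GBP1 at -0.09, USP18 -0.13, SAMD9 -0.24, TRIM21 -0.58, SP100 -0.4, ADAR -0.41, EIF2AK2 -0.54 and IKBKE -0.49. There 8 were higher in MDA-MB-231, with IFNGR2 at -0.15 and JAK1 -0.34, 2 higher between lines in 2D, with PARP14 at -0.09, PLSCR1 -0.18 and ADAR -0.18, and 7 higher in 3D. The TPM scale put the median of all tested genes at -0.44 and -0.54 in A549 and at -0.29 and -0.36 in MDA-MB-231. Between lines it put that median at -0.66 and -0.75 in 2D and at -0.77 and -0.92 in 3D. Of 14051 genes tested by limma, 10351 and 10406 passed in A549 with 1 and with 0.1 added. In MDA-MB-231 9552 and 9211 passed, and for the difference 8819 passed with 1 added. Between lines 11807 and 11689 passed in 2D, and 12285 and 12287 in 3D.

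Testing against a log2 fold change of 1 left 28 members higher and 0 lower in A549, where 2472 of 15304 tested genes passed. It left 3 higher and 0 lower in MDA-MB-231, where 1741 genes passed. For the difference it left 26 higher and 0 lower, where 2145 genes passed. Between lines it left 2 higher and 29 lower in 2D, and 9 higher and 20 lower in 3D. There 5895 and 6736 of all tested genes passed. That threshold removes small changes by construction. With the length and GC trend removed, 2 were lower in MDA-MB-231, with IFIT5 at 0.55, GBP1 0.38, GBP3 0.03, PLSCR1 0.22, PARP14 0.18, SP100 0.29, IFNGR1 0.08, IFNGR2 -0.12, IFIH1 0.43 and PTPN11 0.57, and 1 was lower for the difference, with IFIT5 at -0.35. Causes of the other shifts were not tested.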
